A study of Rattus norvegicus with 8 samples.

Results

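The transcripts described here encode 8 transcription factors that hold the liver cell in its mature state: Hnf4a, Foxa1, Foxa2, Foxa3, Cebpa, Cebpb, Onecut1 and Prox1. They were taken by gene name, as every non-control probe that the array files assign to one of these genes. All 8 had a probe, 9 probes in all since Foxa1 had 2, and all 8 were among the 14873 genes tested. The livers came from Wistar rat pups aged 21 days. The 4 deficient pups were born to dams whose food lacked vitamin B12 and folate, the vitamins needed to remake methionine as a methyl donor, and the 4 control pups to dams on standard food. Each diet began a month before pregnancy and lasted until weaning. The deficient group held 2 males and 2 females, and the control group 1 male and 3 females. RNA of the whole liver was hybridised to 4 Agilent 2-colour arrays, each carrying 1 deficient and 1 control pup in opposite dyes. Array 1 held deficient 3 and control 1, array 2 held deficient 1 and control 3, array 3 held deficient 4 and control 2, and array 4 held deficient 2 and control 4. The labels name no litter, but the sample titles carry letters of unstated meaning, 1 shared by controls 1, 2 and 3 and another by deficient 2 and 4. Some replicates may be littermates, and the p-values cover only the spread among these 8 pups.

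HNF4A is a nuclear receptor that binds the promoters of a large share of liver genes, among them those of apolipoproteins, clotting factors and bile acid enzymes. FOXA1, FOXA2 and FOXA3 are forkhead proteins, known as pioneer factors because they can bind their sites in closed chromatin. C/EBPalpha and C/EBPbeta are leucine zipper proteins: the first drives genes of the urea cycle, glycogen and other metabolism in the resting liver, and the second rises in the acute phase and in regeneration. ONECUT1, also called HNF6, is a cut-homeodomain factor of hepatocyte and bile duct development, and PROX1 is a homeodomain protein that acts as a corepressor of HNF4A and the related receptor NR5A2. These factors bind each other's promoters, and HNF4A, the FOXA proteins and the C/EBP proteins often sit together on the same liver enhancers.

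What the array read for each factor is set by its 60-base probe. Of the 4 probes below, those of Foxa1 and Onecut1 are shown because their last letters close a reading frame with a stop codon, and those of Hnf4a and Prox1 because 2 of their frames hold no stop codon. Such letters do not establish that a probe is coding, and the probes of Foxa2 and Cebpb, not shown, hold 1 frame without a stop as well. All are given 5' to 3', with the closing stop codon in capitals.
Hnf4a, rn4 chr3:154482715-154482774, plus strand: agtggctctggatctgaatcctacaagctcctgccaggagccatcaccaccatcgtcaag
Foxa1, dimmer probe, rn4 chr6:78005464-78005523, minus strand: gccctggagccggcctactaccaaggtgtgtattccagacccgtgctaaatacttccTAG
Onecut1, rn4 chr8:79671988-79672047, plus strand: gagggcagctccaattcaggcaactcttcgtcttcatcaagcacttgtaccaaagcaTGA
Prox1, rn4 chr13:106423135-106447119, minus strand: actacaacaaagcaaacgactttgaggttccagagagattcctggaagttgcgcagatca
The Prox1 probe covers 23985 bases of the genome with 60 bases of sequence, so it reads across a splice junction. The Foxa1 probe shown has 1 frame that is closed by the stop codon at its last bases and 1 other frame without a stop. The other Foxa1 probe, the brighter of the pair, lies at rn4 chr6:77976521-77976580 on the same strand, 28.9 kb from the first and on the downstream side of it, and holds a stop codon in all its frames. The file gives both the same transcript accession, but whether the brighter probe lies in the Foxa1 transcript was not tested, and the Foxa1 value used for the gene comes from it. The probes of Foxa2 at chr3:136739040-136739099, Foxa3 at chr1:78368067-78368126, Cebpa at chr1:87627393-87627452 and Cebpb at chr3:158827761-158827820 complete the set. Exons and untranslated regions of rn4 were not analysed here.

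The median spot signal of a sample was 152.5 to 299 and its median background 33 to 58, with 59.1% to 65.5% of spots well above background. All 15 hepatocyte markers, such as albumin and transferrin, were well above background in all 8 samples. Their summed intensity was lower in deficient livers, at 1240000 to 1800000 units against 2040000 to 2380000 in control livers, with 7 of the 15 called lower and 0 higher. Of the other cell types, 3 of 4 tested neutrophil markers and the stellate cell marker Lrat were called lower. No marker of cholangiocytes, Kupffer cells, endothelium or lymphocytes was called lower. Among 6 tested erythroid markers Tfrc was called higher and the other 5 were not called, with a median of -0.47. The summed erythroid intensity was 69300 to 157000 in deficient and 138000 to 217000 in control livers. 1 sample stood apart: deficient 3 had a summed intensity of 12800 over 14 skeletal muscle genes, against 1650 to 2240 in the other 7 animals, and the factors' values without it are given below. In whole liver, fewer cells of a type and less RNA per cell cannot be told apart. The part of cell make-up in the values below was not tested.

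None of the 8 factors passed the test for diet. The fit was limma's linear model on diet and dye that treats each array as a block, and a gene was called at an adjusted p under 0.05 over all genes. Over the whole array 11.2% of genes were called, 6.6% lower and 4.57% higher. At an unadjusted p under 0.05 there were 2 of the 8, Cebpa and Foxa1, where 27.6% of all genes were below that level. The fitted difference was below 0 for 8 of 8 factors, while it was below 0 for 48.2% of all genes. The median of the 8 was -0.13 on the log2 scale, deficient minus control, beside 0.01 over all genes. In 0 of the 8 did the groups separate fully, which happened in 11.5% of all genes, and in 5.96% with all deficient values below all control values. Foxa1, Foxa2 and Prox1 were lower in the deficient pup on all 4 arrays, as were 13.8% of all genes. All these counts take Foxa1 from its brighter probe. Its dimmer probe was at 0.17 (limma unadjusted p = 0.189) and was lower on 1 of 4 arrays.

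**Figure D1:**
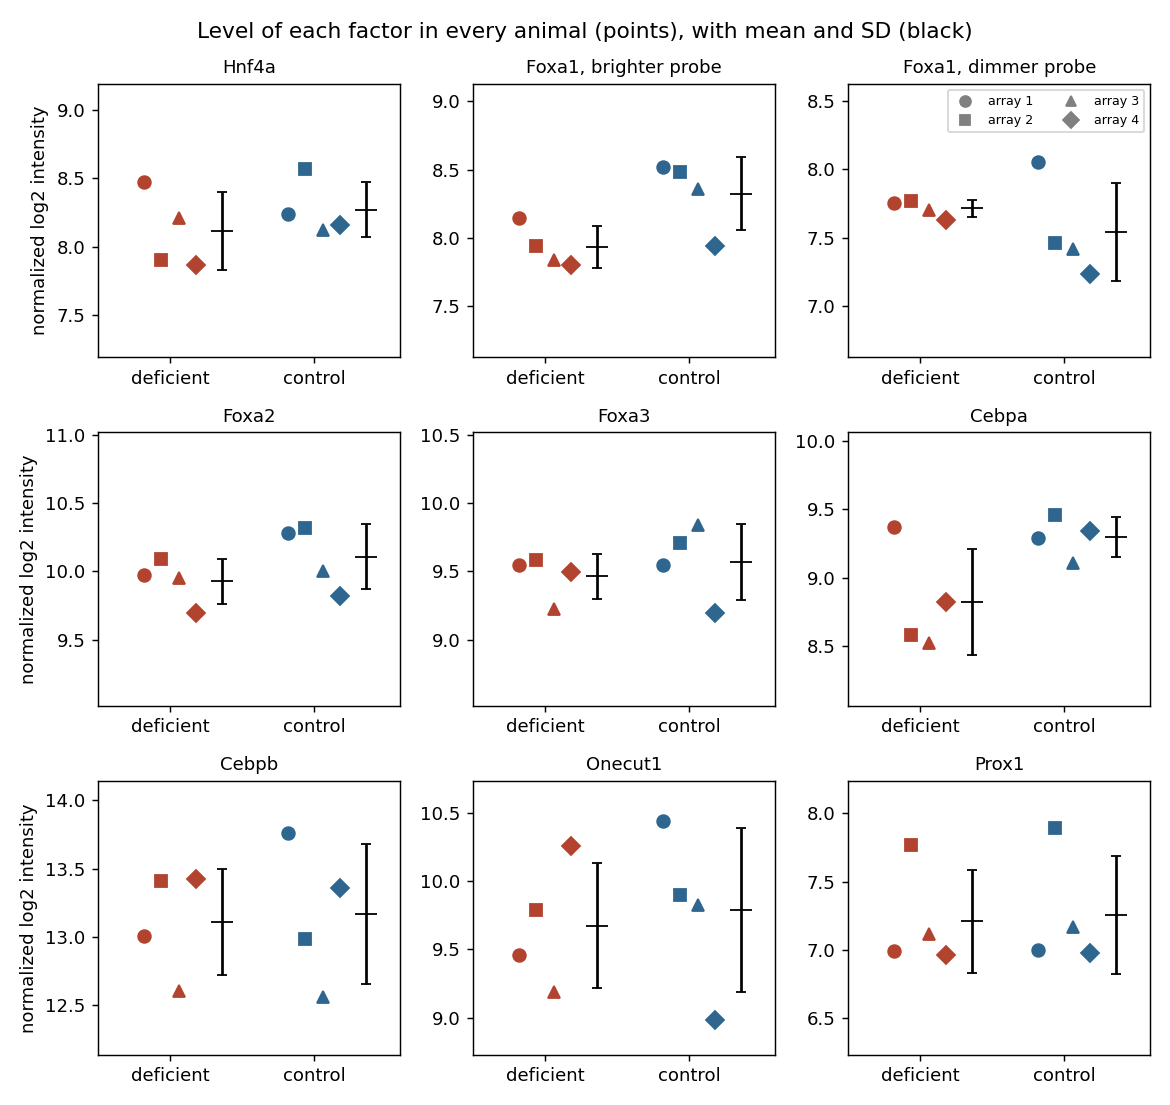
Normalized log2 intensity (vertical axis) of each of the 9 probes in the 4 deficient (left, red) and 4 control livers (right, blue). Each point is 1 animal, its shape the array, and the black bar gives the mean and SD. Every panel spans 2 log2 units. In Cebpa 3 of the 4 deficient animals lie below all control animals, and no panel separates the groups fully.

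Cebpa had the lowest fitted difference of the 8. Its normalized log2 intensity was 8.58, 8.82, 9.37 and 8.53 in deficient animals 1 to 4, against 9.29, 9.11, 9.46 and 9.34 in control animals 1 to 4. Deficient 1, 2 and 4 lay below every control animal, and deficient 3 lay within the control range. The means were 8.82 ± 0.39 in deficient and 9.30 ± 0.15 in control livers (SD, n = 4 each), a difference of -0.48 ± 0.14 (SE), or 0.719 times the control level with a 95% interval of 0.579 to 0.891. It did not pass the test (limma adjusted p = 0.0583). Deficient 3 is the animal with the high muscle transcripts. Without it the difference was -0.65 and was called (limma adjusted p = 0.0104), and without array 1, which carries it, -0.64 (limma adjusted p = 0.0275). Without deficient 2 it was -0.54 and called (limma adjusted p = 0.0352). In the other direction, it was -0.31 without deficient 4 (limma adjusted p = 0.194) and -0.31 without array 3, which carries that animal (limma adjusted p = 0.323). The deficient pup minus the control on its array was 0.08, -0.88, -0.58 and -0.53 for arrays 1 to 4. Array 1 alone went the other way.

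Cebpb, the acute phase member of the family, did not pass the test either. Deficient animals 1 to 4 had log2 intensities of 13.41, 13.42, 13.01 and 12.61, and control animals 13.76, 12.57, 12.99 and 13.36. The groups covered nearly the same range. The difference was -0.06 ± 0.19 (limma adjusted p = 0.875), with a 95% interval of 0.714 to 1.30 in fold. The array ratios were -0.75, 0.42, 0.04 and 0.07 on arrays 1 to 4.

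The FOXA genes were each measured by a single probe except Foxa1, and its 2 probes had fitted differences of opposite sign. On the brighter Foxa1 probe the deficient animals 1 to 4 had 7.94, 7.80, 8.15 and 7.84, and the control animals 8.52, 8.36, 8.49 and 7.94. Deficient 2 and 4 were the lowest of the 8 animals, and control 4 fell among the deficient ones. The difference was -0.39 ± 0.11, or 0.762 times the control level with an interval of 0.640 to 0.908 (limma adjusted p = 0.0563). It was called without control 4 (-0.52, limma adjusted p = 0.0233), without array 4 (-0.49, limma adjusted p = 0.0153) and without deficient 2 (-0.41, limma adjusted p = 0.0413). Without deficient 3 it was -0.47 (limma adjusted p = 0.0508), and without array 2 it was -0.29 (limma adjusted p = 0.168). It was -0.31 without control 3 (limma adjusted p = 0.262). The highest limma adjusted p with an animal or array left out was 0.334, without array 3 (-0.35).

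On the dimmer Foxa1 probe, whose last letters are the stop codon above, the order was turned. The deficient animals had 7.77, 7.63, 7.76 and 7.70, and the control animals 8.05, 7.41, 7.46 and 7.23. The deficient values lay close together, above 3 of the 4 control values and below that of control 1. The difference was 0.17 ± 0.12 (limma adjusted p = 0.395). The array ratios of the brighter probe were -0.37, -0.54, -0.52 and -0.14 on arrays 1 to 4, and those of the dimmer one -0.30, 0.31, 0.29 and 0.40. The brighter probe minus the dimmer one was below 0 on all 4 arrays, at -0.07, -0.85, -0.81 and -0.54, with a mean of -0.57 ± 0.36 (SD, n = 4 arrays). With the values of both probes averaged, Foxa1 was at -0.11 (limma adjusted p = 0.54).

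Foxa2, known in mouse liver for a role in fasting metabolism, was read by a probe printed in 10 spots on each array. The deficient animals 1 to 4 had 10.09, 9.69, 9.97 and 9.95, and the control animals 10.28, 10.01, 10.32 and 9.82. The deficient pup was lower on each array, by ratios of -0.31, -0.23, -0.06 and -0.12, and the SD of these ratios over the 10 spots of an array was 0.0253 to 0.0507. The SD of the log2 intensity over the 10 spots of a sample was larger, at 0.130 to 0.219. Over the animals the difference was -0.18 ± 0.10 (limma adjusted p = 0.3), with an interval of 0.749 to 1.04 in fold. Foxa3, which is found in the adult liver together with the other members, had 9.58, 9.49, 9.55 and 9.23 in deficient animals and 9.54, 9.84, 9.71 and 9.19 in control animals. The groups overlapped, with the lowest value in each belonging to deficient 4 and control 4. The difference was -0.11 ± 0.12 (limma adjusted p = 0.605), and the arrays had 0.01, -0.12, -0.61 and 0.30.

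**Figure D2:**
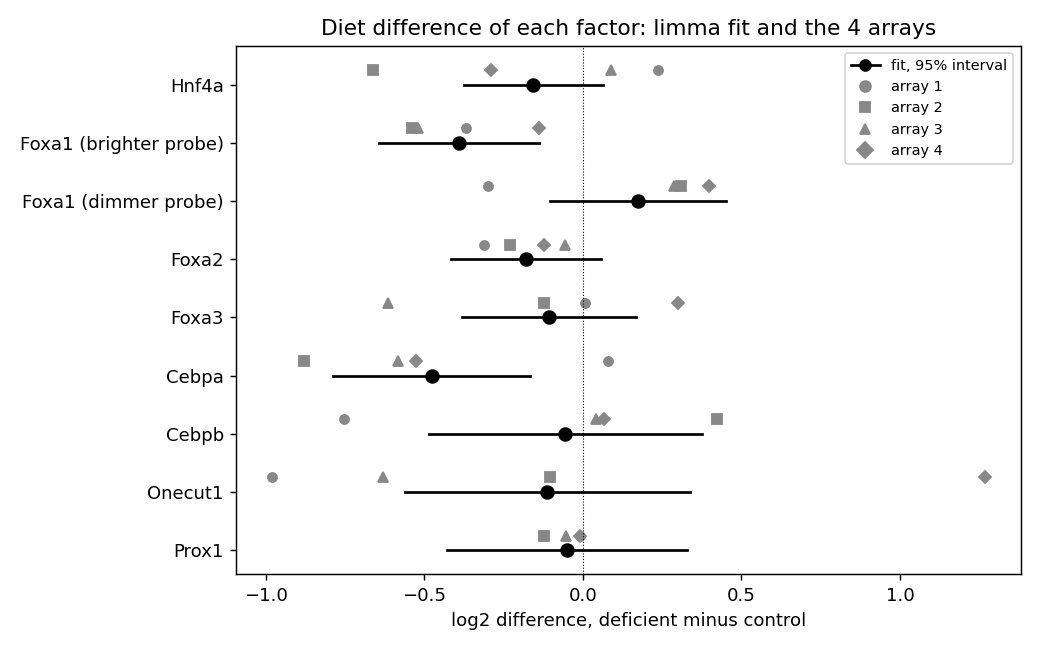
Log2 difference, deficient minus control (horizontal axis), for the 9 probes (rows). Black points and lines are the limma fit and its 95% interval, and grey symbols above each are the ratios on arrays 1 to 4. The intervals of Cebpa and of the brighter Foxa1 probe lie below 0, and those of the other 7 probes cross it, while the array ratios of Onecut1 span -0.98 to 1.27.

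Hnf4a, the receptor at the centre of this network, had 7.91, 7.87, 8.47 and 8.21 in deficient animals 1 to 4, and 8.24, 8.12, 8.57 and 8.16 in control animals. Deficient 1 and 2 were the lowest of the 8, and the rest of the values were mixed. The difference was -0.16 ± 0.10 (limma adjusted p = 0.334), or 0.897 times the control level with an interval of 0.770 to 1.04. A fall to below 0.770 of the control level lay outside this interval, but the intervals of other fits reached lower. On the log2 scale the lower end was -0.38 here, -0.41 on within-array ratios and -0.51 in females only. With 1 animal or array left out the difference ran from -0.26 without control 4 to -0.09 without control 3 and -0.06 without array 2, and it was not called in any of these fits. The deficient pup was lower on arrays 2 and 4, at -0.66 and -0.29, and higher on arrays 1 and 3, at 0.24 and 0.09. Arrays 2 and 4 are those with the deficient pup in Cy5, and the fit holds dye as a term.

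Onecut1 varied more within the groups than between them. The deficient animals had 9.79, 10.25, 9.46 and 9.19, and the control animals 10.44, 9.82, 9.89 and 8.98. Both groups thus spanned more than a log2 unit. The difference was -0.11 ± 0.20 (limma adjusted p = 0.753), with an interval of 0.678 to 1.26 in fold. The deficient pup was at -0.98, -0.10, -0.63 and 1.27 against its control on arrays 1 to 4, and array 4 alone went upward. Without array 4 Onecut1 was at -0.45 and was called lower (limma adjusted p = 0.0444). That fit called 2880 of all genes, against 1660 with all arrays. Without array 2 Onecut1 was at 0.23, so its direction changed with the array left out.

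Prox1, the corepressor, was close to the background. The deficient animals had 7.77, 6.97, 6.99 and 7.12, and the control animals 6.996, 7.17, 7.89 and 6.98, and control 4 was not well above background. Deficient 1 and control 3, which share array 2, were the highest in their groups, and the other 6 animals lay together. The array ratios were -0.01, -0.12, -0.05 and -0.01. The fitted difference was -0.05 ± 0.17 (limma adjusted p = 0.877), with an interval of 0.744 to 1.26 in fold.

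The calls of Cebpa and Foxa1 turned on the setting, and their adjusted p-values lay just above 0.05. Of 28 alternative settings Foxa1 was called in 6 and Cebpa in 5, each time lower. Both were called with loess normalization alone, with sample weights and without deficient 2. Over all 14873 genes these settings called 1967, 4062 and 3548, against 1660 as reported. Of the pair, Foxa1 alone was called with Agilent processed signals (1181 of all genes called), without control 4 (1053) and without array 4 (2880). Cebpa alone was called without deficient 3 (1664 of all genes called) and without array 1 (1115). With loess alone the call of Foxa1 (limma adjusted p = 0.0196) came with an estimated array correlation of 0.802, and with the correlation held at 0.421 and probes as rows it was lost (limma adjusted p = 0.222). On within-array ratios of the deficient pup to its control, a paired fit with a dye term, Cebpa had a limma adjusted p of 0.129 and Foxa1 of 0.11. Hnf4a, Foxa1, Foxa2 and Cebpa were below 0 in all 28 settings, where Foxa1 stands for its brighter probe except in the average over both. Settings such as no array block, no dye term or loess alone leave the difference itself unchanged, at -0.48 for Cebpa. In these the direction could not change. Foxa3, Cebpb, Onecut1 and Prox1 went above 0 in 2, 6, 5 and 2 settings, the last of 27. Without deficient 3, the sample with high muscle transcripts, Hnf4a was at -0.22, Foxa2 at -0.17, Foxa3 at -0.21, Cebpb at 0.003, Onecut1 at -0.11 and Prox1 at 0.0064, and none of these 6 was called.

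**Figure D3:**
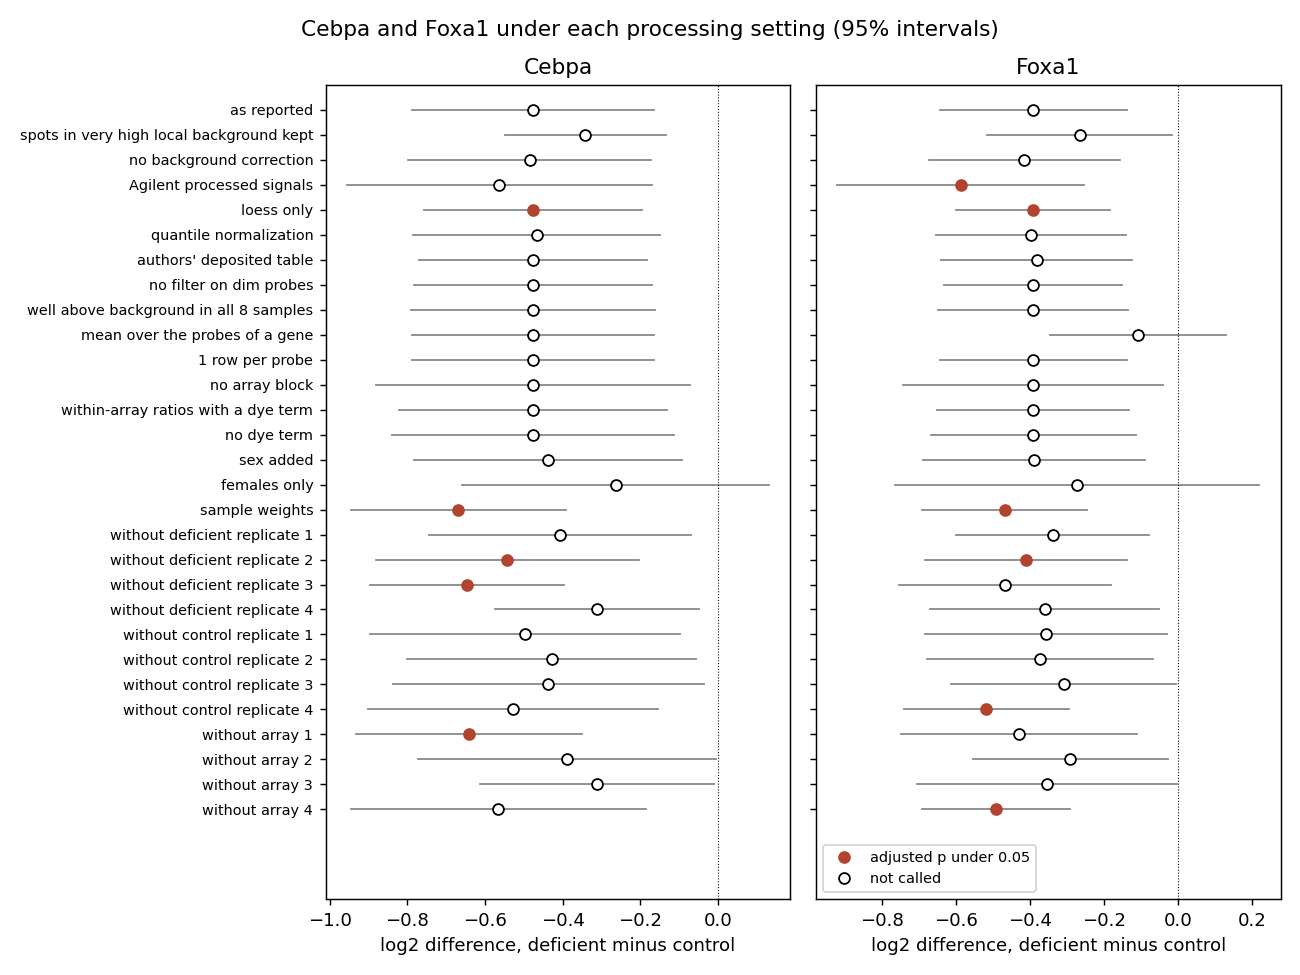
Log2 difference, deficient minus control (horizontal axis), of Cebpa (left) and Foxa1 (right) under the reported setting and the 28 alternatives (rows), with 95% intervals. Red points passed an adjusted p of 0.05, 5 for Cebpa and 6 for Foxa1, and every point of both genes lies below 0. Foxa1 stands for its brighter probe except in the mean over both, and the dimmer probe is not shown.

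Sex was set beside diet in a further fit, with 3 male and 5 female pups. None of the 8 factors passed the test for sex (0 called, and 0 at an unadjusted p under 0.05, in limma), where over all genes 0% were called and 2.69% were below that level. The estimate farthest from 0 was that of Onecut1, at 0.33 ± 0.22, male minus female (limma adjusted p = 1). The difference of the diet effect between the sexes was -1.10 ± 0.50 for Cebpb, males minus females, and did not pass (limma adjusted p = 0.423). For that term 0 of the 8 were called and 0 were at an unadjusted p under 0.05 in limma. Over all genes 0% were called and 12.1% were below that level. The term rests on a single male control. With sex in the fit Cebpa was at -0.44 ± 0.15 (limma adjusted p = 0.134) and Foxa1 at -0.39 ± 0.13 (limma adjusted p = 0.129). In females only, 2 deficient and 3 control pups, Cebpa was at -0.26 and Foxa1 at -0.27, and neither was called.

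For each factor the 2 genes with the most similar values were sought among 10347 genes with a symbol, by Pearson correlation over the 8 samples after the dye effect was removed. These are descriptions over samples that share arrays, and the best of many genes will correlate highly. Cebpa ran with Cldn3 (r = 0.992), a claudin of tight junctions, and Spcs2 (0.983), a subunit of the signal peptidase. Cebpb ran with Klf9 (0.992), a zinc finger factor induced by glucocorticoids, and Ngdn (0.971). Hnf4a ran with Tmbim6 (0.991), an endoplasmic reticulum membrane protein, and Ankrd55 (0.978). Foxa1, by its brighter probe, ran with Sem1 (0.986), a small proteasome subunit, and Slc35b4 (0.978), a nucleotide sugar transporter. Foxa2 ran with Pinx1 (0.988), an inhibitor of telomerase, and Sh2d5 (0.985). Foxa3 ran with Sfxn4 (0.958) and the channel protein Panx1 (0.947), and Onecut1 with Rnf114 (0.975), a ubiquitin ligase, and Bms1 (0.946), a ribosome assembly factor. Prox1 ran with Mfsd1 (0.999) and the mitochondrial S-adenosylmethionine carrier Slc25a26 (0.992). The 2 highest Prox1 values, those of deficient 1 and control 3, share array 2. By rank (Spearman) the correlation was 0.786 for Slc25a26 with Prox1 and for Spcs2 with Cebpa, the lowest of the 16 genes. Of these 16 genes Slc35b4 alone was called for diet (-0.30, limma adjusted p = 0.0439).

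Other factors of the liver network were taken from lists made for these pathways. Of 23 other liver-enriched transcription factors tested, 1 rose and 2 fell, which is 13% against 11.2% of all genes, and their median was -0.02. Nr1h4, the bile acid receptor, was the lowest, at 11.79, 12.49, 12.60 and 12.13 in deficient animals 1 to 4 and 13.13, 12.81, 13.32 and 13.03 in control animals. All deficient animals lay below all control animals, and the difference was -0.82 ± 0.15 (limma adjusted p = 0.0127). The gene's other probe, at -0.34, did not pass (limma adjusted p = 0.0964). Mlxipl, which encodes the carbohydrate-responsive factor ChREBP, fell by 0.50 ± 0.10 on the log2 scale (limma adjusted p = 0.0197). Esrra, an orphan receptor of mitochondrial genes, rose by 0.47 ± 0.07 (limma adjusted p = 0.00663). The next in order of p, Nr2f6, was at -0.21 ± 0.09 and did not pass (limma adjusted p = 0.146). With a replicate or array left out, Esrra was called in 11 of 12 fits, Nr1h4 in 8 and Mlxipl in 6. The paired fit on within-array ratios called 0 of the 23, with limma adjusted p-values of 0.0529 for Esrra, 0.0677 for Mlxipl and 0.0696 for Nr1h4, where it called 3.14% of all genes. Without array 3 limma also called 0 of the 23, and without deficient 4, control 1 or control 3, 1 higher and 0 lower.

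Partners of the C/EBP proteins gave 2 genes higher and 0 lower among 8 tested, where 4.57% of all genes were called higher and 11.2% in either direction. Trib3, a pseudokinase of the stress response, had 12.12, 11.21, 9.65 and 11.26 in deficient animals 1 to 4 and 9.56, 8.79, 8.24 and 8.60 in control animals. The groups did not overlap, and the difference was 2.26 ± 0.34 (limma adjusted p = 0.00625). Ddit3, or CHOP, a family member that pairs with C/EBP proteins and keeps them from their usual sites, had 11.90, 10.78, 10.61 and 10.76 in deficient animals and 10.66, 10.16, 10.05 and 9.65 in control animals. Only deficient 3 and control 1, which share array 1, overlapped, and the difference was 0.88 ± 0.18 (limma adjusted p = 0.0184). Trib1, which directs C/EBPalpha to degradation, was at 0.17 ± 0.10 (limma adjusted p = 0.329), and Cebpz at 0.19 ± 0.08 (limma adjusted p = 0.155). With a replicate or array left out, Trib3 was called in 12 of 12 fits and Ddit3 in 8. Ddit3 lost its call without deficient 4, control 2, control 3 or array 3. Within-array ratios called neither, with limma adjusted p-values of 0.0531 for Trib3 and 0.0563 for Ddit3, and in females only limma called neither (limma adjusted p = 0.0896 and 0.0963).

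Known targets of the factors were measured on the same arrays. Over the 4 target lists together 46 distinct genes were tested, of which 23 fell, 4 rose and 19 did not pass, where 6.6% of all genes were called lower and 4.57% higher. Their median was -0.54 beside 0.01 over all genes. On within-array ratios 9 of the 46 were lower and 3 higher, where 3.14% of all genes were called, and in females only 3 were lower and 1 higher, where 0.397% were called. Of the 46, 7 are also hepatocyte markers, whose summed intensity was lower in the deficient livers as given above. Of the 15 hepatocyte markers 46.7% were called, 7 lower and 0 higher. Whether the targets fell more often than other genes of the hepatocyte was not tested. The difference between factors and targets in how often they were called was not tested.

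**Figure D4:**
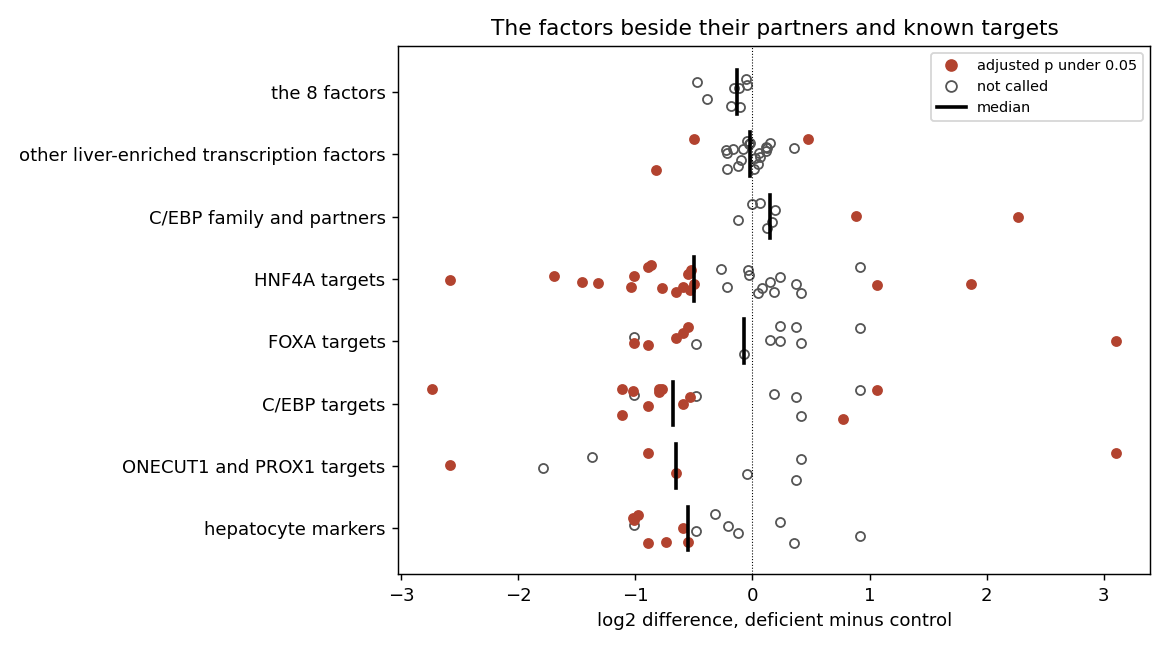
Log2 difference, deficient minus control (horizontal axis), of every tested gene in the 8 factors and in lists of partners, targets and hepatocyte markers (rows). Filled points passed an adjusted p of 0.05, open ones did not, and black lines are medians; a gene in several lists appears in each. The 8 factors hold no filled point, while 17 of 29 HNF4A targets and 12 of 18 C/EBP targets do.

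Among 29 HNF4A targets 15 fell, 2 rose and 12 did not pass, or 58.6% called against 11.2% of all genes. The median was -0.50. The 4 with the smallest p were Apoa2 and Apoa4, which encode lipoprotein components, Pklr, the liver pyruvate kinase, and Slc10a1, the transporter that takes bile acids into the hepatocyte. Apoa2 rose, with 14.84, 14.46, 15.49 and 15.25 in deficient animals 1 to 4 and 13.08, 13.02, 12.99 and 13.49 in control animals. The groups lay apart by about a log2 unit, with a difference of 1.86 ± 0.14 (limma adjusted p = 0.000578). Apoa4 fell by 1.69 ± 0.14 on the log2 scale (limma adjusted p = 0.00104). Pklr had 10.15, 9.97, 10.73 and 10.11 in deficient animals and 11.63, 11.78, 11.73 and 11.63 in control animals. Deficient 3 was the nearest to the control range, and the difference was -1.45 ± 0.13 (limma adjusted p = 0.00104). Slc10a1 fell by 1.04 ± 0.09 (limma adjusted p = 0.00113). Each of these 4 was called with any replicate or array left out. On within-array ratios these 4 were called with 4 others, 7 lower and 1 higher in all. Without array 3, 4 HNF4A targets were called lower and 1 higher, without control 3, 8 and 2, and in females only 2 lower and 1 higher.

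Of 18 C/EBP targets 10 fell, 2 rose and 6 did not pass, or 66.7% called against 11.2% of all genes, with a median of -0.68. Hamp, which encodes the iron hormone hepcidin, had 12.22, 12.34, 13.16 and 10.76 in deficient animals and 15.14, 15.26, 14.28 and 14.73 in control animals. Deficient 4 was the lowest by more than a log2 unit, and the difference was -2.73 ± 0.36 (limma adjusted p = 0.00435). C3, a complement protein, was at -1.02 ± 0.12 (limma adjusted p = 0.00288) and Crp, a pentraxin of the acute phase, at -1.12 ± 0.18 (limma adjusted p = 0.00767). Ass1, an enzyme of the urea cycle, rose by 0.77 ± 0.10 (limma adjusted p = 0.00416). On within-array ratios 2 were lower, C3 and Hamp, and 1 higher, Ass1, and without the array block 5 were lower and 1 higher. Without array 3, 1 C/EBP target, Hamp, was called lower and 0 higher, so C3, Crp and Ass1 lost their calls there, without deficient 4, control 2, control 3 or array 2, 5 were lower and 2 higher, and without deficient 3, 10 were lower and 4 higher.

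Of 15 FOXA targets 5 fell, 1 rose and 9 did not pass, or 40% called against 11.2% of all genes. The median was -0.07 and its sign was not stable, at 0.24 without deficient 3 and -0.61 without deficient 2, and above 0 in 10 of 28 settings. The one that rose was Igfbp1, a circulating binding protein of insulin-like growth factors, whose log2 intensity was 15.12, 15.00, 13.19 and 15.98 in deficient animals and 10.57, 12.70, 11.20 and 12.39 in control animals. Deficient 3 was the lowest of its group and still above all control animals, and the difference was 3.11 ± 0.44 (limma adjusted p = 0.00496). The 5 that fell were Tf, transferrin (-1.01 ± 0.16), Ttr, the thyroid hormone carrier transthyretin (-0.89 ± 0.15), Pfkfb1, a regulator of glycolysis (-0.65 ± 0.13), Serpina1, the main antiprotease of plasma (-0.59 ± 0.13), and Slc2a2, the hepatocyte glucose transporter (-0.55 ± 0.09). Their limma adjusted p-values lay between 0.00663 and 0.0275. Tf, Ttr and Serpina1 are also among the hepatocyte markers. With each of the 8 replicates and 4 arrays left out in turn, Igfbp1 was called all 12 times, Tf and Ttr 11 times, Slc2a2 10, Pfkfb1 7 and Serpina1 4. On within-array ratios Igfbp1 alone was called, and the 5 that fell had limma adjusted p-values of 0.0532 to 0.0934. In females only 0 of the 15 were called by limma. Without array 3 Igfbp1 was again the 1 FOXA target called, and without control 3, 2 were lower and 1 higher.

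Of 9 targets of ONECUT1 and PROX1, 3 fell, 1 rose and 5 did not pass, or 44.4% called against 11.2% of all genes, with a median of -0.65. Igfbp1, Ttr and Pfkfb1 recur in this list. The other called gene was Cyp7a1, which opens the main route from cholesterol to bile acids and which PROX1 is known to repress in human liver cells through NR5A2 and HNF4A. It had 7.32, 7.42, 9.25 and 7.58 in deficient animals and 10.92, 9.65, 11.28 and 10.04 in control animals. Deficient 3 came within a log2 unit of the lowest control animal, and the difference was -2.58 ± 0.31 (limma adjusted p = 0.00279). On within-array ratios, and likewise without array 3, Cyp7a1 was called lower and Igfbp1 higher, and no other gene of this list. In females only limma called 0 of the 9.

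Since the factors act on one another's promoters, the 250 bases before the RefSeq start site (GRCr8) were searched for their binding words on both strands. The table held windows for 5 of the 8 factors, 6 windows in all because Hnf4a has a pair of starts. Foxa1, Onecut1 and Prox1 were not matched. The words were CAAAGTCCA for HNF4A, found in 0.338% of 33469 rat promoter windows of that length, TGTTTAC for FOXA (3.21%), TTGCNNAA for C/EBP (9.22%) and ATCAATA for ONECUT (1.93%). No match overlapped another. In the 6 windows ATCAATA alone was found, once in that of Foxa2, on the other strand 137 bases before the start, and once in the upstream window of Hnf4a, 29 bases before the start. The other Hnf4a window, chr3:172641586-172641835, held no match, and which start these livers used was not tested. The windows with a match are shown because ONECUT1 is known to bind the promoters of these genes in rodents. The word is in capitals, written for Foxa2 as it reads on the gene's strand.
Foxa2, GRCr8 chr3:155927509-155927758, minus strand: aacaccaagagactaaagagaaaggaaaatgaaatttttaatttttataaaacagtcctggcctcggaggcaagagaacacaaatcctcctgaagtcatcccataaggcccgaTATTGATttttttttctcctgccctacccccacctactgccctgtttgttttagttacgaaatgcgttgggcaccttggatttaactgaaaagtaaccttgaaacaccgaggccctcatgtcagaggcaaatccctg
Hnf4a, GRCr8 chr3:172605970-172606219, plus strand: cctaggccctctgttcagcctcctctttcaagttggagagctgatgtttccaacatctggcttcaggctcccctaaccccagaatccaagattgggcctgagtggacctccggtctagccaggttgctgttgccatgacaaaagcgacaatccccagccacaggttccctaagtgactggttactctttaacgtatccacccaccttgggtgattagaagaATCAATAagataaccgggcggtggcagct
A match is a string of letters and no evidence of binding. Neither Foxa2 nor Hnf4a passed the test for diet, as given above.

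The windows differed in CpG content, the letters at which DNA is methylated. That of Cebpb held 45 CpG in 250 bases, more than 99.6% of the promoters in the table. Cebpa held 21 (84.9% had fewer) and Foxa3 held 19 (81.6%), while Foxa2 and both windows of Hnf4a held 5 each, which is the median of all promoters. Cebpa and Cebpb, with the most CpG, had fitted differences of -0.48 and -0.06, and neither was called. Whether CpG content goes with the diet difference was not tested. DNA methylation was not analysed here.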

How the data were processed

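Each deposited file holds the spot intensities of 1 Agilent 2-colour rat array, read out by the authors in Agilent Feature Extraction (version 10.7.1.1, per the submitters' processing notes), with 42877 non-control spots of 30367 probes. A second deposited table gives the authors' own normalized intensities, whose normalization is not stated, and was used only as an alternative. With limma 3.58.1 in R 4.3.3, 72 spot values with a local background over 5 times the channel median were left out, then came normexp (offset 50), loess within arrays with control spots at weight 0, and Aquantile. Spots of a probe were averaged, probes well above background in at least 4 of 8 samples were kept, and the brightest probe stood for a gene. The fit (lmFit, eBayes) modelled diet and dye and blocked on the array (correlation 0.421), with Benjamini-Hochberg adjustment at 0.05 over all genes. The script was tested on simulated data. Fits of females only, and of sex with a replicate left out, used this same correlation.

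The 8 factors and the gene lists were chosen with earlier results of these data known. The genes named are the 8 factors, the 2 genes most like each, and of each list up to 4 genes with the smallest p and every called gene where there are at most 8. For 3794 probes an outdated symbol was replaced from the RefSeq table. Replicate numbers follow the order of the samples and pair no animals. There were no saturated spots; with 4 arrays, precision is limited by their number. Alternatives were the background correction, the normalization, the probe filter and summary, the array block, dye and sex terms, sample weights, females only, and leaving out each replicate or array.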

Additional observations from a re-analysis of the deposited data

How the results depend on the processing

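Replicate numbers follow the order of the samples and pair no animals, so no replicate block by number was fitted. Animals are paired by array, and that paired analysis, within-array ratios with a dye term, called 0 of the 8 factors. Over 28 alternatives for each factor, 27 for Prox1, 223 values in all, 196 kept their direction and side of the threshold, 12 passed the threshold and 15 changed sign. The cause was not tested. Some alternatives, such as no array block or no dye term, leave the difference itself unchanged, so its direction could not change in them. The number of factors called, 0 as reported, was 1 with Agilent processed signals (Foxa1), 2 with loess only and 2 with sample weights (Cebpa and Foxa1 in both), 0 to 2 with a replicate left out, and 1 and 2 without arrays 1 and 4 (Cebpa; Foxa1 and Onecut1). The values that changed sign, none of them called, were those of Foxa3 with spots in very high background kept (0.022) and without array 3 (0.048). Those of Onecut1 were 0.021 with these spots kept, 0.10 without deficient 1, 0.001 without control 1, 0.12 without control 3 and 0.23 without array 2. Those of Cebpb were 0.32 in females only, 0.003 without deficient 3, 0.13 without control 1, 0.06 without control 4, 0.14 without array 1 and 0.03 without array 4. Those of Prox1 were 0.01 without deficient 3 and 0.14 without control 3. With a replicate or array left out the lowest values of these 4 factors were -0.26 for Foxa3, -0.45 for Onecut1, -0.32 for Cebpb and -0.15 for Prox1. Over all genes 1660 were called as reported, 954 with these spots kept, 1181 with Agilent processed signals and 1967 with loess only. The number was 400 without the array block, 467 on within-array ratios, 838 without the dye term and 824 with sex added. It was 59 in females only, 4062 with sample weights and 383 to 3548 with a replicate left out. Without arrays 1, 2, 3 and 4 it was 1115, 911, 210 and 2880. For the diet by sex term 1 factor, Onecut1, was called with loess only, where 1740 of the 14873 genes were called. That term rests on 1 male control. No factor was called for sex with any replicate left out. Prox1 was well above background in 7 of 8 samples and the other 8 probes in all 8.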
